A study of Homo sapiens with 6 samples.

Results

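Integrins are the receptors with which cells hold on to extracellular matrix and to each other, and the focal adhesion linkers are the proteins that tie them to the actin cytoskeleton. The list described here held 43 genes, chosen by name from the integrin α and β chains and from the talin, kindlin, parvin, actinin and FAK families, out of 19740 genes that the arrays measured under a gene name. It comprised 26 integrin chains, 18 α and 8 β, and 17 linkers, and all 43 genes had a probe, with 50 probes in all. SU-DHL-2 is an established cell line of diffuse large B-cell lymphoma (DLBCL), in which malignant B cells grow in suspension. All cells were grown in medium with serum. In the IL-17A group, 3 samples of these cells were treated with the cytokine IL-17A at 200 pg/ml for 72 h, and in the control group 3 samples were kept for the same time without IL-17A. The comparison asked which transcripts IL-17A changes in the lymphoma cells. Every sample came from this 1 cell line, so the values describe that line alone. The labels name separate samples and not separate cultures or days, so that p-values measure the spread between these samples, which may be technical.

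An integrin is a pair of 1 α and 1 β chain that both cross the membrane. The outer part binds collagen, laminin, fibronectin or a receptor on another cell. The short inner part of the β chain binds talin and kindlin, which switch the receptor to its active form. Actinin, vinculin, the complex of integrin-linked kinase with the parvins, and paxillin then connect it to actin and to the kinases FAK and PYK2. In B cells, αLβ2 (LFA-1) binds ICAM-1 on neighbouring cells, α4β1 binds VCAM-1 on stromal cells, and α4β7 binds MAdCAM-1 on the vessels of the gut, which is how lymphocytes home to and are held in lymphoid tissue.

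The RNA of each sample was labeled with Cy3 and hybridized to a 1-colour Whole Human Genome array. Values below are log2 signals after quantile normalization, and a probe counted as detected on an array where the extraction software marked its signal as above 0, significant against the local background and well above it. The lowest signal that met this was 1.86 to 2.11 on the log2 scale, and no spot was saturated. On the IL-17A arrays 23570 to 23718 of 34127 probes were detected, and on the control arrays 23729 to 24077. A probe reports its own target with its own efficiency, so levels were compared between groups and never between genes. All 15 B-cell markers were detected on all 6 arrays, among them CD79A and PAX5, and so were 7 of 8 markers of the activated B-cell type. IL-17A replicate 1 belonged to the same scan as the 3 controls, and IL-17A replicates 2 and 3 to another, so that scan and treatment overlapped in part. With scan as a block, the estimate sets IL-17A replicate 1 alone against the 3 controls. The spread of this lone array could not be measured. The p of that block takes the spread from the other arrays and assumes that the lone array varies like them.

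Among the members with the clearest change, ITGB7 and ACTN1 had a promoter in the RefSeq table, which held 30 of the 43 members. Their promoters are shown because receptor signalling from IL-17A is known to act through NF-kB and AP-1 factors and because ETS factors act at many leukocyte genes. Each line gives the 250 bases that end just before the start of the gene, 5′ to 3′ on the strand of the gene, on GRCh38.p14. Capitals mark matches, on either strand, to GGGNNNNNCC (NF-kB), TGANTCA (AP-1) or GGAAGT (ETS). The ITGB7 promoter is chr12:53207252-53207501, on the minus strand, and the ACTN1 promoter is chr14:68979303-68979552, on the minus strand.
ITGB7: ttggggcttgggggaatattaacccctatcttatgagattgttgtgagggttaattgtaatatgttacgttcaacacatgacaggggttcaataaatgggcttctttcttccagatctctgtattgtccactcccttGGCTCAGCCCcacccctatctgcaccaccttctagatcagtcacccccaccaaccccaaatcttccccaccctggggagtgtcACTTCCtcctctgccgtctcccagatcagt
ACTN1: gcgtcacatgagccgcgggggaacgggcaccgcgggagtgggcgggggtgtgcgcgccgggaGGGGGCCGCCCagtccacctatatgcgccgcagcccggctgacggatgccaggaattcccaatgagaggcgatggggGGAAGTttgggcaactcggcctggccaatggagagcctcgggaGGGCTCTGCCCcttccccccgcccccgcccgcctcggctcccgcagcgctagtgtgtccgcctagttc
The ITGB7 window held 1 match to the NF-kB letters, which began 113 bases before the start, and 1 to the ETS letters, which began 30 bases before it. The ACTN1 window held 4 matches to the NF-kB letters, in 2 overlapping pairs that began 188 and 187 and again 68 and 67 bases before the start, and 1 to the ETS letters at 111 bases. No AP-1 letters were found in either window. The NF-kB letters are short and common, since they matched 53.73% of the 27305 promoters of the same length, and 26 of the 30 member promoters. The ETS letters matched 19.92% of all promoters and 8 of the 30 members, and the AP-1 letters 6.596% and 1 of the 30. GC content was 49.6% in the ITGB7 window and 72.0% in the ACTN1 window, and its part in the matches was not tested. A match describes the letters and is not a binding site.

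With IL-17A few of these genes changed, and they did so in opposite directions. ITGB2, the β chain of the leukocyte integrins, and ITGA9 were higher, whereas ITGB7, the β chain of the gut-homing integrin, and the actin cross-linker ACTN1 were lower. In bulk samples such as these, fewer cells of a type and less RNA per cell cannot be told apart. Of the 43 genes, 34 had a probe detected on at least 3 of the 6 arrays and were tested with limma, each at its brightest tested probe. Between the groups, 2 of the 34 (5.88%) differed by at least 1.5-fold with an unadjusted p under 0.05, ITGA9 upward and ACTN1 downward, where 2.18% of all 23945 tested probes did so (1.01% upward and 1.17% downward). An unadjusted p under 0.05 at any fold change was found for 10 genes (29.4%), 3 of them higher and 7 lower, against 31.3% of all probes (17.1% higher and 14.2% lower). After Benjamini-Hochberg adjustment over all tested probes, 3 genes (8.82%) had a p under 0.05, ITGB2 upward and ITGB7 and ACTN1 downward, against 7.59% of all probes (4.43% higher and 3.17% lower). The adjusted count was 4 without control replicate 3 and 0 without any other array, and over the whole array 1818 probes became 983 and 2 to 69. The arrays of the groups did not overlap for 13 of the 34 genes (38.2%), against 39% of all probes without a missing value. The shares at the unadjusted p, at the adjusted p and of groups without overlap lie near those of the whole array. Over all named genes at their brightest probe, 1.92% passed both thresholds, and 2 of 34 genes are too few to read against it.

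With IL-17A, 24 of the 34 genes had a negative and 10 a positive log2 fold change, where 11584 of the 23945 tested probes had a negative one. The median over the members was -0.05, against 0.01 over all tested probes, and the difference is about as large as the SD of the members' median between arrays of a group (0.05). For 24 of the 34, the 95% interval of the fold change lay within 1.5-fold in either direction. For 8 of the 32 genes that did not pass both thresholds the interval reached 1.5-fold. The other 9 members were not tested. ITGA1, ITGA8, ITGAD, ITGB3, ITGB6, ITGB8, FERMT1 and PARVB were not well above background on any array, and ITGAX was detected on control replicate 1 alone. Those genes therefore have no measured change here.

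**Figure D1:**
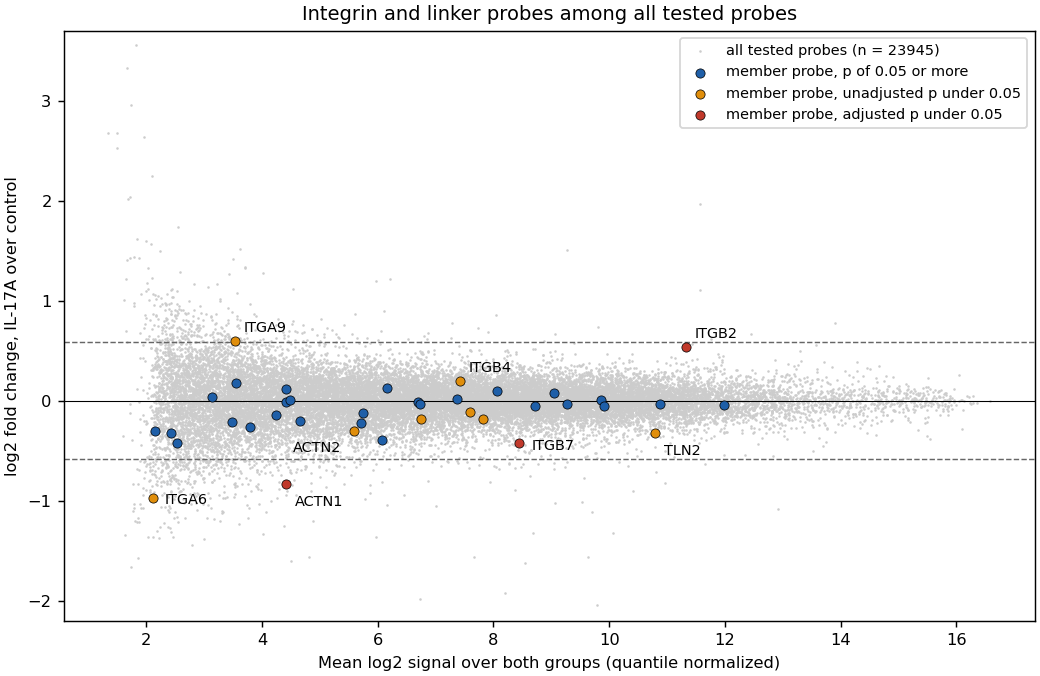
Log2 fold change of IL-17A over control (vertical axis) against the mean log2 signal of both groups (horizontal axis) for all 23945 tested probes in grey and the 38 tested member probes in colour. Dashed lines mark 1.5-fold. Most member probes lie close to 0, ITGB2 and ITGB7 stand out among the bright ones, and ITGA9, ACTN1 and the other probe of ITGA6 lie among dim signals, where the grey cloud is widest.

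The α chains that bind extracellular matrix were measured for 9 of their 11 members, and none passed both thresholds at its brightest probe. Among the collagen-binding chains, ITGA2, ITGA10 and ITGA11 had log2 fold changes of -0.30, -0.23 and -0.01, with an unadjusted p of 0.41, 0.084 and 0.96. ITGA2 was detected on only 3 arrays and its interval ran from -1.13 to 0.53, which is wider than that of most members. It was -0.66 without IL-17A replicate 1 (unadjusted p = 0.012), -0.01 without IL-17A replicate 2 and 0.43 with scan as a block. ITGA10 was lower on all 3 IL-17A arrays (5.53, 5.71 and 5.57) than on the controls (5.72, 5.71 and 6.05), by a margin of less than 0.01 between the nearest arrays.

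Of the laminin-binding chains ITGA3, ITGA6 and ITGA7, the last had an unadjusted p under 0.05 at the brightest probe and was lower with IL-17A. ITGA7, which is best known from muscle, gave 6.64, 6.68 and 6.66 with IL-17A and 6.83, 6.91 and 6.77 in the controls. The groups did not overlap, and the log2 fold change was -0.18 (SE 0.05, adjusted p = 0.075). ITGA3 changed by -0.12 (adjusted p = 0.30). ITGA6, the chain of the laminin receptors α6β1 and α6β4, had 2 tested probes that differed in size. At the brighter one the IL-17A arrays gave 4.57, 4.61 and 4.50 and the controls 4.96, 4.74 and 4.59. Here the ranges overlapped narrowly and the log2 fold change was -0.21 (SE 0.10, adjusted p = 0.22). At the other probe the controls gave 2.78, 2.54 and 2.51 and were all detected, whereas the IL-17A arrays gave 1.62, 1.13 and 2.15 and none was detected. That probe was at least 1.48-fold lower with IL-17A. The bound takes each IL-17A array at its own signal or at its lowest signal well above background, whichever was higher. The adjusted p of 0.073 belongs to the limma fit of the signals without that floor, and the bound itself was not tested. This probe passed the detection filter only through the controls, where it was the higher, so that a difference was built into its being tested. With scan as a block its unadjusted p was 0.063.

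The chains that recognize the arginine-glycine-aspartate (RGD) sequence in fibronectin and vitronectin passed neither the fold threshold nor the adjustment. ITGAV gave 7.50, 7.61 and 7.52 with IL-17A and 7.65, 7.64 and 7.69 without, a log2 fold change of -0.11 (SE 0.04, unadjusted p = 0.044, adjusted p = 0.15). The groups did not overlap, but their nearest arrays differed by only 0.03, and the unadjusted p rose above 0.05 without IL-17A replicate 1 or 3 or any 1 of the controls. ITGA5, the fibronectin receptor chain, changed by -0.22 (adjusted p = 0.40), and by -0.40 without control replicate 3 (unadjusted p = 0.0028) and -0.09 without control replicate 1. ITGA2B, the platelet chain αIIb, changed by 0.18 (adjusted p = 0.61), with the sign turned without control replicate 3 (-0.07). The platelet markers PF4, PPBP and TUBB1 were not detected on any array, whereas 5 of the 8 on that list, ITGA2B among them, were detected.

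ITGA9 and ITGA4 belong to the same small branch of α chains, which bind VCAM-1 and matrix proteins such as osteopontin. ITGA9 gave 3.75, 3.89 and 3.83 with IL-17A and 3.57, 2.91 and 3.20 in the controls. The 3 IL-17A arrays lay above every control, and the spread of the controls (SD 0.33) exceeded that of the treated samples (SD 0.07). ITGA9 was 1.51-fold higher with IL-17A (log2 fold change 0.60, SE 0.17, unadjusted p = 0.013, adjusted p = 0.080). The probe was dim, and its log2 fold change was 0.51 with each array scaled to its 75th percentile, 0.53 without normalization between arrays and 0.08 after normexp background correction. It was under 1.5-fold without IL-17A replicate 2 (0.56), control replicate 2 (0.44) or control replicate 3 (0.58), and with scan as a block it was 0.52 with an unadjusted p of 0.10.

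ITGA4, the partner of β1 in the VCAM-1 receptor and of β7 in the gut-homing receptor, did not differ beyond the spread of the arrays. Its brightest probe gave 9.81, 9.97 and 9.84 with IL-17A and 9.79, 9.85 and 9.94 in the controls. The log2 fold change was 0.01, with a 95% interval from -0.15 to 0.17. The other ITGA4 probes gave 0.13 and 0.12 (adjusted p = 0.23 and 0.35).

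ITGB7 pairs with α4 or with αE, and it fell with IL-17A. The signals were 8.16, 8.27 and 8.24 with IL-17A and 8.62, 8.68 and 8.64 in the controls. The ranges within each group were narrow and lay well apart. ITGB7 was 1.34-fold lower (log2 fold change -0.42, SE 0.04, adjusted p = 0.029). With the scan block the value was -0.48. The adjusted p was then 0.075, and with each array left out in turn (0.048 to 0.14) it stayed under 0.05 only without control replicate 3. ITGAE, the other partner of β7 and the receptor for E-cadherin, changed by -0.03 (adjusted p = 0.59, interval -0.13 to 0.06), and neither α partner of β7 passed the test. Whether ITGB7 differed from these chains was not tested. Markers of T and NK cells, which also carry β7 integrins, were detected for 9 of 13 genes, with CD3D, CD3E and CD3G detected on all 6 arrays. Their summed signal on the linear scale was 1075 to 1177 with IL-17A and 1256 to 1449 without, with CD5, TRAT1, NCAM1 and KLRD1 at background. Most of that sum came from CD4 (mean log2 signal 9.80 with IL-17A and 10.11 without), and of the 9 tested genes 4 were higher and 5 lower. At an unadjusted p under 0.05, 1 was higher and 4 were lower (55.6%, against 31.3% of all probes). The part of these markers in the result was not tested.

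ITGB2 (CD18), the β chain shared by LFA-1 and the other leukocyte integrins, had the smallest p of the members. It gave 11.56, 11.63 and 11.60 with IL-17A and 10.9995, 11.06 and 11.12 in the controls. Every treated sample exceeded every control by more than the range of either group. ITGB2 was 1.45-fold higher with IL-17A (log2 fold change 0.54, SE 0.05, unadjusted p = 4.35e-05, adjusted p = 0.025), just under the 1.5-fold threshold. With the scan block the value was 0.50 (adjusted p = 0.086), and with each array left out in turn it was 0.51 to 0.57, with an adjusted p of 0.048 without control replicate 3 and 0.051 to 0.13 without any other array.

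Neither of the tested α chains that pair with β2 had an unadjusted p under 0.05. ITGAL, the α chain of LFA-1, gave 8.14, 8.06 and 8.15 with IL-17A and 8.09, 8.03 and 7.94 in the controls, and the ranges overlapped. Its log2 fold change was 0.10 (unadjusted p = 0.12), with an interval from -0.04 to 0.24 beside 0.42 to 0.66 for ITGB2. The difference between the chains was not tested. ITGAM, the α chain of the complement receptor Mac-1, gave 5.87, 5.85 and 5.90 with IL-17A and 5.98, 6.13 and 6.67 in the controls. All treated samples lay below the controls, but control replicate 3 stood apart, and the log2 fold change was -0.39 (unadjusted p = 0.078). It was -0.18 without control replicate 3 (unadjusted p = 0.034). ITGAX, ITGAD and the monocyte markers CSF1R, FCGR3A, S100A8, S100A9 and MRC1 were not measurable, with ITGAX alone detected on 1 array. Of the 10 monocyte markers with a probe 5 were detected on any array. The 4 tested ones were all lower with IL-17A. For 2 of the 4 (50%) the unadjusted p was under 0.05, against 14.2% of all probes lower at that p. The summed linear signal of the monocyte list was 121 to 133 with IL-17A and 147 to 152 without, and its part in these results was not tested.

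The remaining β chains changed little. ITGB4, the long β chain that anchors α6 to keratins in epithelia, gave 7.53, 7.54 and 7.48 with IL-17A and 7.28, 7.29 and 7.38 in the controls. The groups did not overlap, and the log2 fold change was 0.20 (SE 0.04, unadjusted p = 0.0047, adjusted p = 0.054). The epithelial markers KRT5, KRT14 and CDH1 were not detected on any array. The other 5 of the 8 on that list, EPCAM, KRT8, KRT18, KRT19 and CLDN4, were detected on all 6. Of these 5, 4 were lower and 1 was higher. At an unadjusted p under 0.05, 3 were lower and 1 was higher (80%, against 31.3% of all probes). The summed signal of the list was 1214 to 1267 with IL-17A and 1333 to 1358 without, and its part in the result was not tested. ITGB1, the most widely used β chain, changed by 0.08 (interval -0.09 to 0.25). ITGB5 changed by -0.26 (adjusted p = 0.33), and by -0.09 without control replicate 1. Over the β chains, 2 of the 5 tested genes were higher and 1 was lower at an unadjusted p under 0.05. Of all probes 17.1% were higher and 14.2% lower at that p, and 5 genes are too few to read against these shares.

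**Figure D2:**
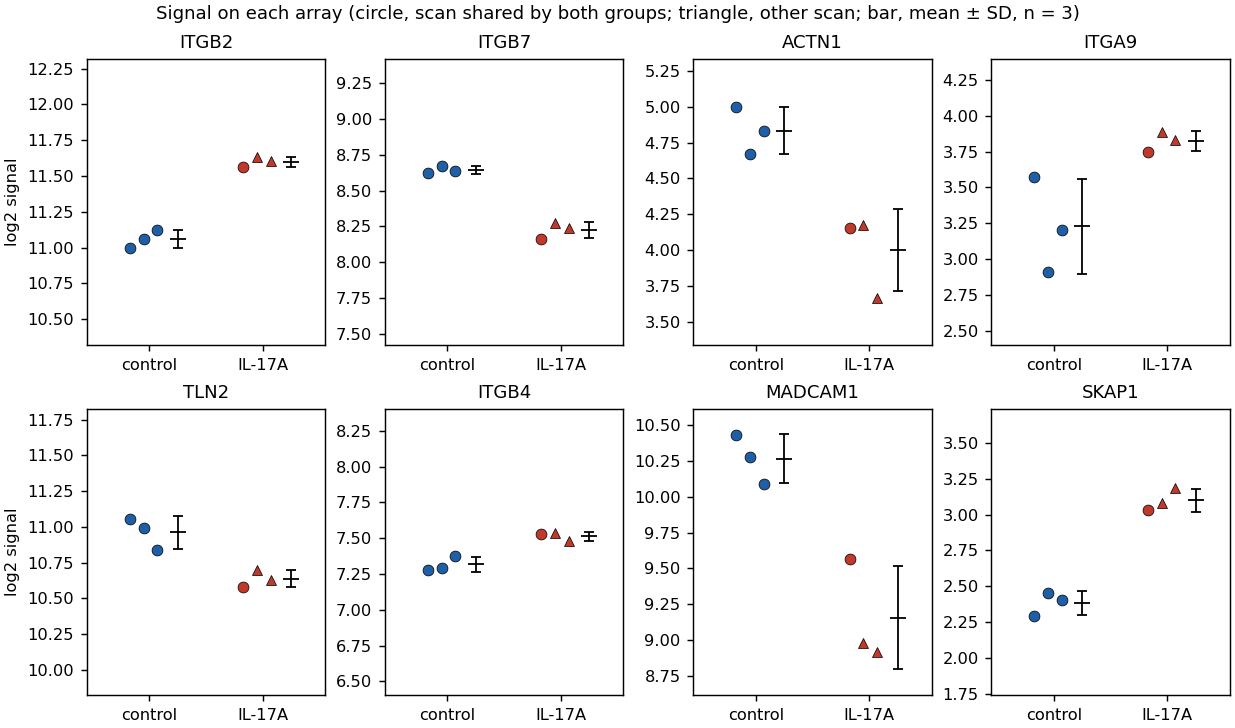
Log2 signal on each array (points) with the mean ± SD of each group (bars, n = 3), for 6 members and for MADCAM1 and SKAP1. Circles are arrays of the scan that held both groups and triangles the other scan, and every panel spans the same log2 range. In each panel all IL-17A arrays lie on 1 side of all controls, including the IL-17A array that shared their scan. The genes shown all had an unadjusted p under 0.05, and 39% of all probes without a missing value did not overlap either. The MADCAM1 value of the IL-17A array that shared the scan (9.57) lies nearest to the controls.

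Talins and kindlins bind the β tail, and of the 4 tested genes TLN2 had an unadjusted p under 0.05. TLN2, the talin most abundant in muscle and brain, gave 10.58, 10.70 and 10.63 with IL-17A and 11.05, 10.996 and 10.84 in the controls. The groups did not overlap, and TLN2 was 1.25-fold lower (log2 fold change -0.32, SE 0.07, unadjusted p = 0.0041, adjusted p = 0.052). TLN1, the main talin of blood cells, changed by -0.01 with an interval from -0.22 to 0.20. FERMT3, the kindlin of blood cells, and FERMT2, which is common in adherent cells, changed by 0.02 and 0.01, and the intervals were -0.17 to 0.22 and -0.35 to 0.37.

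ILK, parvin and PINCH proteins form a scaffold between the β tail and actin, and none of the 3 tested genes here had an unadjusted p under 0.05. ILK changed by -0.06, with an interval from -0.21 to 0.10. PARVG, the parvin of blood cells, gave 2.02, 2.67 and 2.28 with IL-17A and 2.59, 2.91 and 2.74 in the controls, with overlap. Its log2 fold change was -0.43 (unadjusted p = 0.060), and the p depended on the processing. It was under 0.05 with 75th percentile scaling (0.027), without normalization (0.017), in the series table of the authors (0.048), with a replicate block (0.0087), with scan as a block (-0.73, p = 0.016) and without IL-17A replicate 2 (-0.60, p = 0.0070). Without IL-17A replicate 1 the log2 fold change was -0.27. PARVA was the least precise member, with an interval from -1.08 to 1.16. Its IL-17A arrays ranged from 2.22 to 3.90 and its controls from 2.80 to 3.49.

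Of the 6 tested proteins that link integrins to actin, 3 fell with an unadjusted p under 0.05, and the 3 were the actinins. Of all probes 14.2% were lower at that p, and 6 genes are too few to read against this share. Actinins are rod-shaped dimers that cross-link actin filaments and bind β tails and vinculin. ACTN1 gave 4.16, 4.18 and 3.67 with IL-17A and 5.0, 4.67 and 4.83 in the controls. The highest treated value lay 0.50 below the lowest control, and IL-17A replicate 3 was the lowest of all. ACTN1 was 1.78-fold lower (log2 fold change -0.83, SE 0.16, unadjusted p = 0.0027, adjusted p = 0.046), and it passed both thresholds and the adjustment. Leaving out any 1 array gave -0.92 to -0.67 with an adjusted p above 0.05 (0.078 to 0.14), and normexp correction gave -0.20. With scan as a block it was -0.68 (unadjusted p = 0.037).

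ACTN2 and ACTN4 moved the same way by less. ACTN2, an actinin of the muscle Z-disc, gave 5.41, 5.47 and 5.43 with IL-17A and 5.82, 5.78 and 5.61 without it, and its fold change on the log2 scale was -0.30 (SE 0.07, adjusted p = 0.054). For ACTN4, the second non-muscle actinin, the values were 7.81, 7.66 and 7.71 with IL-17A and 7.97, 7.92 and 7.83 without. The groups of ACTN4 did not overlap, but its nearest arrays were 0.02 apart (log2 fold change -0.18, adjusted p = 0.12), and with scan as a block the unadjusted p was 0.27. With each array left out, the unadjusted p of ACTN4 was under 0.05 in 2 of 6 fits and reached 0.083. VCL (vinculin), PXN (paxillin) and ZYX (zyxin) changed by -0.05, -0.03 and -0.14, each with an adjusted p above 0.5. Among these the interval was narrowest for PXN at -0.13 to 0.07. A dimmer PXN probe gave -0.32 (adjusted p = 0.27).

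The kinases that signal from adhesions did not differ between the groups beyond their spread. PTK2 (FAK) changed by -0.03 with an interval from -0.16 to 0.10. PTK2B (PYK2), the relative of FAK that prevails in blood cells, changed by -0.04 with an interval from -0.23 to 0.16.

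**Figure D3:**
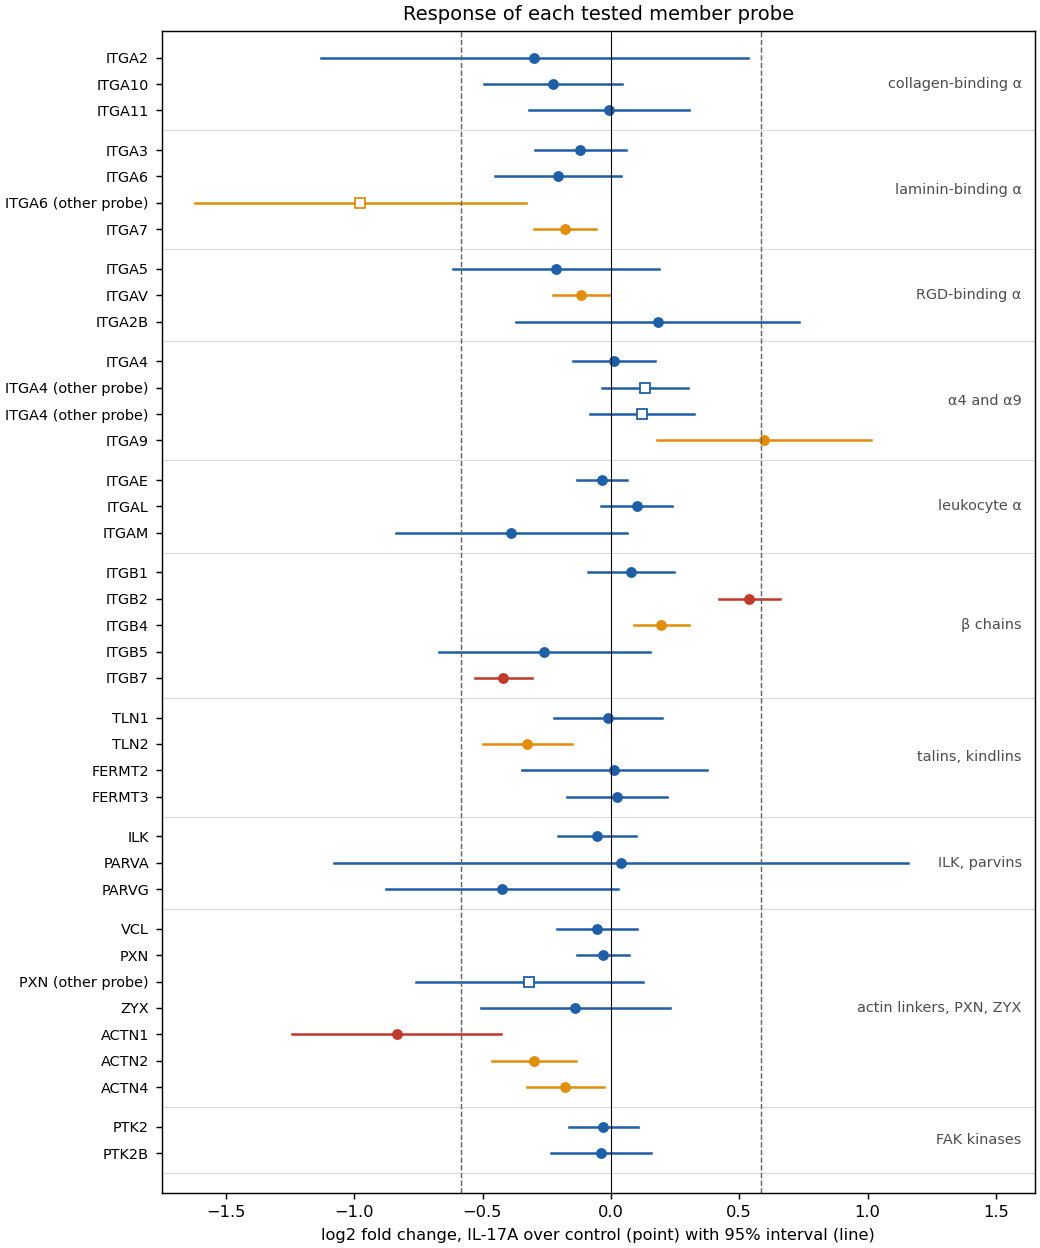
Log2 fold change of IL-17A over control (points) with the 95% interval (lines) for the 38 tested member probes, grouped by role, with open squares for further probes of a gene. Red marks an adjusted p under 0.05, orange an unadjusted p under 0.05 and blue the rest, and dashed lines mark 1.5-fold. The 3 actinins lie left of 0, whereas the β chains spread to both sides, from ITGB7 at -0.42 to ITGB2 at 0.54.

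Genes around the integrins were read from 5 further lists. Of 35 ligands, 21 were tested. MADCAM1 met the fold and p thresholds together, and for 11 ligands, 3 higher and 8 lower, the unadjusted p was under 0.05. MADCAM1 encodes the vascular ligand of α4β7. Its signals were 9.57, 8.98 and 8.92 with IL-17A and 10.43, 10.28 and 10.09 in the controls, so that every treated sample was lower. MADCAM1 was 2.16-fold lower (log2 fold change -1.11, SE 0.20, adjusted p = 0.038). With the scan block the value was -0.70 (unadjusted p = 0.0052), more than 1.5 times smaller, since IL-17A replicate 1 lay nearest to the controls. Without any 1 array it was -1.32 to -0.99 (adjusted p = 0.048 to 0.14).

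A further 3 ligands passed the adjusted threshold. The type IV collagen chain COL4A2 was lower by a log2 fold change of -0.48 (adjusted p = 0.043), and vitronectin, VTN, by -0.41 (adjusted p = 0.045). F11R (JAM-A), a ligand of LFA-1 on other cells, was higher by 0.29 (adjusted p = 0.047). With any 1 array left out the adjusted p of COL4A2 was 0.072 to 0.14 and that of VTN 0.061 to 0.14, and F11R stayed under 0.05 in 1 of 6 such fits (0.04999 to 0.17). In the ligand list 19.0% of the 21 tested genes had an adjusted p under 0.05 and 52.4% an unadjusted one, against 7.59% and 31.3% of all probes. The median log2 fold change of the list was -0.06.

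Among 17 tested genes that activate integrins from within the cell, 1 met the fold and p thresholds together, and for 4 (23.5%, against 31.3% of all probes) the unadjusted p was under 0.05, 2 in each direction. SKAP1 is an adaptor that brings the Rap1 machinery to the receptor. It gave 3.03, 3.08 and 3.19 with IL-17A and 2.29, 2.45 and 2.40 without, and it was 1.64-fold higher (log2 fold change 0.72, SE 0.06, adjusted p = 0.025). All treated samples exceeded all controls. The probe was dim, and normexp correction gave 0.06 with an unadjusted p of 0.052, beside adjusted p-values of 0.048 to 0.13 with each array left out. Of 12 tested inhibitors none met the fold and p thresholds together in limma, and 1 (8.33%) reached an unadjusted p under 0.05. This was SIPA1, which switches Rap1 off, with 8.86, 8.86 and 8.85 in the treated samples and 9.11, 9.06 and 9.08 in the untreated ones (change of -0.23 on the log2 scale, adjusted p = 0.033, and 0.053 to 0.14 with any 1 array left out).

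In the signalling list downstream of integrins, which held SRC, LYN, SYK, RAC1, RAC2 and AKT1 among others, none of 30 tested genes passed both thresholds or the adjustment in limma, and 6 (20%, against 31.3% of all probes) had an unadjusted p under 0.05, 3 in each direction. The median log2 fold change was -0.01. Of 35 tested genes of other adhesion proteins, none met the fold and p thresholds together in limma and 9 (25.7%) reached an unadjusted p under 0.05, 2 higher and 7 lower. The LIM-domain proteins TES and PDLIM5 passed the adjusted threshold, both lower. TES gave 2.17, 2.44 and 2.20 with IL-17A, where 1 of 3 arrays was detected, and 2.99, 2.75 and 2.68 without it (change of -0.54 on the log2 scale, adjusted p = 0.048). After normexp correction its change was -0.03 (unadjusted p = 0.25). PDLIM5 changed by -0.24 (adjusted p = 0.041). Both lost the adjusted call whichever array was left out (0.061 to 0.15 and 0.065 to 0.14).

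Markers of adherent cell types, which carry many of these genes, were in part detected. COL1A2, COL3A1, DCN, LUM, PDGFRA, THY1 and POSTN of the mesenchymal list were not detected on any array, whereas 5 of its 12 genes were detected on at least 1, and the summed linear signal of that list was 57.8 to 61.3 with IL-17A and 56.1 to 68.1 without. The endothelial list, with 8 of 9 genes detected on any array and KDR at background, summed to 305 to 326 with IL-17A and 352 to 393 without. Of its 8 tested genes 7 were lower. For 5 of these (62.5% of the 8) the unadjusted p was under 0.05, against 14.2% of all probes lower at that p. The platelet list, with 5 of 8 genes detected, summed to 43293 to 46250 with IL-17A and 47721 to 53859 without. Almost all of the platelet sum came from GP1BB (mean log2 signal 15.44 with IL-17A and 15.60 without), and 4 of the 5 tested platelet genes were higher with IL-17A. The endothelial sum was lower in the treated samples, as were ACTN1 and TLN2, and its part in those results was not tested. The 8 markers of the activated B-cell type summed to 9017 to 9289 with IL-17A and 8038 to 8581 without. Most of that sum came from FOXP1 (mean log2 signal 12.58 with IL-17A and 12.44 without). The groups of FOXP1 overlapped (adjusted p = 0.21). Of the 8 genes 7 were higher, and IRF4 was lower (log2 fold change -0.10, adjusted p = 0.67). Of the 8, 3 (37.5%) had an adjusted p under 0.05, all higher, against 7.59% of all probes (4.43% higher). Among the 3 was CCND2, detected on the IL-17A arrays alone. CCND2 thus passed the detection filter only through the group where it was higher, so that a difference was built into its being tested. The sum of the 8 moved in the same direction as ITGB2, and its part in that result was not tested. The B-cell sum was 65601 to 69331 with IL-17A and 66043 to 67689 without, with overlap.

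**Figure D4:**
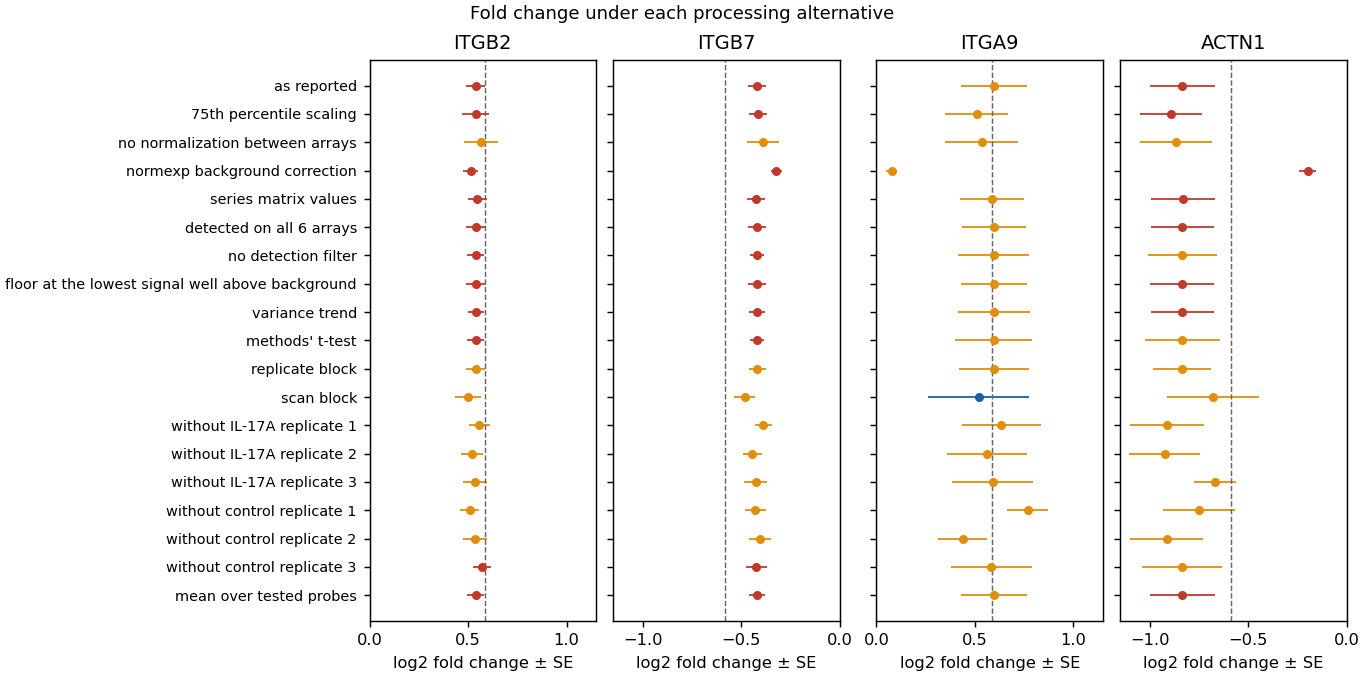
Log2 fold change ± SE of ITGB2, ITGB7, ITGA9 and ACTN1 (panels) under each way of processing the arrays (rows), with red for an adjusted p under 0.05, orange for an unadjusted p under 0.05 and blue for the rest, and dashed lines at 1.5-fold. The direction of all 4 genes was the same in every row. Their groups do not overlap, so the scan block and leaving out an array could not turn it. ITGB2 stayed between 0.50 and 0.57, and normexp correction shrank the dim probes of ITGA9 and ACTN1 to 0.08 and -0.20.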

How the data were processed

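SU-DHL-2 cells with IL-17A (200 pg/ml, 72 h, 3 samples) or without it (3 samples) were measured on 1-colour arrays and grouped by their titles. Images were analyzed by the authors with Agilent Feature Extraction 11.0.1.1 (submitters' processing notes). The files the authors deposited give a background-subtracted intensity per spot on a linear scale, not normalized between arrays, with flags of 0 or 1, and a series table of log2 values, quantile normalized by the authors, which served as an alternative. Among its values, 9986 to 10417 probes per array share the lowest log2 value, 2.32 to 2.33. The median is 4.95 on every array, and above the floor it followed the scanner values at r = 0.9996 to 0.9998. The probes carry an annotation of an earlier assembly, so the array gives no coordinates here.

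Control spots and non-uniform spots (4 to 25 per array) were left out, intensities below 1 were set to 1, log2 values of replicate spots were averaged (43118 spots, 34127 probes), and arrays were quantile normalized. The methods do not name the columns behind the flag Detected. It was read as a signal above 0, significant and well above the local background. The 23945 probes detected on at least 3 of 6 arrays entered the tests. The RefSeq accession of a probe gave its gene name (GRCh38.p14), for 25771 probes. A gene was represented by its brightest tested probe.

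Groups were compared with limma 3.58.1 in R 4.3.3. Tests were two-sided and had no covariates. The thresholds were a fold change of 1.5 and an unadjusted p under 0.05, and p-values were adjusted by Benjamini-Hochberg over the tested probes of the whole array. An exact permutation test of 3 against 3 cannot go below p = 0.1. The number of arrays limits the precision. The procedure was tested on simulated data. The members, the further lists and the marker lists were chosen with earlier results of these data known. Named were all 43 members and, of each further list, up to 4 genes that passed both thresholds or the adjusted one, with cell type markers by count, range and those at background. CD79A, PAX5 and the genes that describe the signalling list were given as examples of their lists. CD4, the CD3 chains, GP1BB, FOXP1, IRF4, CCND2 and the detected epithelial markers were named after their values were seen.

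Alternatives were scaling to the 75th percentile, no normalization, normexp background correction (offset 50), the series table, detection on all 6 arrays or no filter, a variance trend, a floor on dim signals, the methods' t-test (Student), a replicate block, a block for the scan that arrays shared per the file headers, the mean over probes, a fold change of 2, and each array left out in turn.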

Additional observations from a re-analysis of the deposited data

How the results depend on the processing

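Under the alternatives, 597 of 675 recomputed log2 fold changes of member probes stayed on the same side of 0 and of an unadjusted p of 0.05, 19 lost that p, 21 gained it and 38 changed direction. None of the members with an unadjusted p under 0.05 changed direction in 196 recomputed values. The groups of these probes did not overlap, so the scan block and leaving out an array could not turn their direction. The filters, the t-test, the variance trend and the replicate block leave the fold change of a probe unchanged. Most of these values therefore could not show a change of direction. Over the whole array the 522 probes past both thresholds became 15 with normexp correction, 299 with detection on all 6 arrays, 978 without a filter and 82 at a fold change of 2, and 409 to 658 with each array left out. The 241 higher and 281 lower probes became 150 and 422 with 75th percentile scaling, 186 and 426 without normalization and 260 and 509 with a scan block. The count of 2 member genes past both thresholds became 1 with 75th percentile scaling or without normalization, 0 with normexp correction and 0 at a fold change of 2, and 1 to 3 with each array left out, with the 1 found without control replicate 2 or 3. The 3 member probes, 1 of them the dim ITGA6 probe detected in the controls alone, became 0 with normexp correction and 0 at a fold change of 2, and 2 to 4 with each array left out. The 3 genes with an adjusted p under 0.05 became 0 without normalization or with a scan block, 5 in the series table, 6 each with detection on all 6 arrays, with a variance trend and with the mean over probes, and 0 to 4 with each array left out, with the 4 found without control replicate 3. Genes with an unadjusted p under 0.05 numbered 8 to 13 then. The 2 genes of the further lists past both thresholds became 1 with normexp correction and 1 in the series table, and 2 to 4 with each array left out, with the 4 again without control replicate 3. The median of the members was -0.11 to -0.033 with each array left out, and -0.11 without control replicate 2. Normexp adds an offset of 50, which compresses the log2 differences of dim probes; for the other settings the cause was not tested.

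The values gave no sign that the replicate numbers pair the samples. The deviations of same-numbered arrays from their group means correlated at -0.087, -0.0022 and -0.047, which cannot show how the samples were set up. With a replicate block, 527 probes passed both thresholds, 4 of the whole array and 0 members had an adjusted p under 0.05, and 2 member genes passed both thresholds.

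Changes of direction were found only among members without an unadjusted p under 0.05. For the other members many of the settings could not give one. With a scan block ITGA2 was 0.43, ITGA11 0.24, ITGA4 -0.048, TLN1 0.11, FERMT2 -0.027, ILK 0.0022, PARVA -0.89, VCL 0.041, PXN 0.017 and its other probe 0.012, PTK2 0.070 and PTK2B 0.10. ITGA2 was 0.052 in the series table. After normexp correction ITGA11 was 0.025 and FERMT2 -0.0060. Without normalization TLN1 was 0.016, FERMT2 -0.013, PARVA -0.026 and PXN 0.0033, and with 75th percentile scaling FERMT2 was -0.039 and PARVA -0.052. With each array left out, ITGA11 ranged from -0.13 to 0.12, ITGA2B from -0.071 to 0.32, ITGA4 from -0.034 to 0.055, TLN1 from -0.070 to 0.061, FERMT2 from -0.10 to 0.17, FERMT3 from -0.037 to 0.091, PARVA from -0.34 to 0.50, PTK2 from -0.079 to 0.0023 and PTK2B from -0.11 to 0.024. Dim signals limit what can be said, since ITGA2, PARVA, PARVG and the other probes of ITGA6 and PXN were not detected on every array.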
